A study of Mus musculus with 2 samples.

Results

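The genes described here are 44 genes of blood coagulation, fibrinolysis and the complement system, followed in sinusoidal endothelial cells of the liver (LSEC), whose thin, perforated walls separate blood from hepatocytes. They were chosen by gene name from the design of the array, and all 44 were present, with 57 probes on 75 spots, out of 31894 genes and unnamed transcripts on 43020 spots. The cells came from 1 wild-type mouse and 1 ob/ob mouse, male animals at 8 weeks of age. Mice of the ob/ob genotype lack working leptin and become obese, and the genetic background of either mouse is not given in the sources used here. LSEC were released from the liver with collagenase and kept overnight in serum-containing medium before total RNA was extracted, labelled with Cy3 and hybridised, 1 array per genotype. There is thus no replicate of either genotype, no test was possible, and every difference compares these 2 arrays.

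Coagulation is a cascade of proteases that ends with thrombin (F2) cutting fibrinogen to fibrin, and fibrinolysis is its reversal by plasmin (Plg). Complement is a related protease cascade that is started by C1q, by mannose-binding lectins or by the alternative pathway, meets at C3, and ends in the membrane attack complex. Hepatocytes secrete most of the circulating factors, liver endothelium makes factor VIII, thrombomodulin and the protein C receptor, and macrophages are the main makers of C1q and properdin.

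Values are scaled intensities, the spot signal relative to the 75th percentile of its array, which was set to 1000. Differences are log2 of ob/ob over wild-type. A gene was taken as measured where its probe was well above background, and a 2-fold difference, 1 on the log2 scale, was counted. Where a gene had several probes, the one with the highest mean over both arrays stood for it. The error given beside a difference is the SD from the scanner's error model, which covers the spots and not mice or cell preparations.

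Leptin itself stayed at background on each array (2.98 and 1.88) and checks nothing about the genotype. The cells carried the markers of LSEC on both arrays: all 18 endothelial markers were measured, none differed by 2-fold, their median difference was -0.18, and their summed intensity was 347526 in wild-type cells and 254778 in ob/ob. Markers of other liver cells were present on both arrays and higher on the ob/ob array. Of 22 hepatocyte markers 20 were measured on both arrays and 18 were at least 2-fold higher (median 2.86, summed intensity 7898 and 53081). Of 16 macrophage markers 13 were higher (median 1.76, summed intensity 64238 and 163869.9), and of 12 measured stellate cell and fibroblast markers 11 were higher (median 1.88, summed intensity 8992 and 36380). With normexp, another background correction with an offset of 50, the stellate count was 2 at the 75th percentile (median 0.31) and 7 after quantile normalization (median 1.03). Cps1, a urea cycle enzyme and a defining hepatocyte marker, stayed at background on each array. In a bulk sample a change in the share of a cell type and a change in RNA per cell cannot be told apart.

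Of the 44 genes, both arrays measured 35, the ob/ob array alone measured 8, and Cfd was measured by neither. Of the 35, 22 (62.9%) were at least 2-fold higher in ob/ob cells, 0 were lower by that much and 13 lay within 2-fold. Over all 18143 genes that both arrays measured, the share at least 2-fold higher was 5.83%, the share lower was 2.29%, and the share in either direction was 8.11%. With genes measured on 1 array taken at their bound, 7.2% of 20590 genes were higher and 2.99% lower, and 4 of the 8 members measured in ob/ob cells only had a bound of at least 2-fold. The members' median difference was 1.64 and that of all genes -0.12. The 22 higher members had differences of 1.23 to 3.40, and the other 13 of -0.68 to 0.91. The 8 genes measured on the ob/ob array only make up 18.2% of the members, against 6.82% of all genes on the array. Scaling on the array median in place of the 75th percentile lowers every difference by 0.28. It turned the balance over all genes from 1057 higher and 415 lower (71.8% of calls higher) to 768 and 977 (44.01%), while 21 members were at least 2-fold higher and 0 lower. Normexp moved the members further. Under normexp at the 75th percentile 14 members were higher and 3 lower (F9, C6 and Masp2), and the members' median was 0.20. The whole array also shifted down in that setting: the 18134 measured genes had a median of -0.29, and 369 were higher while 3817 were lower. Under normexp with quantile normalization 17 members were higher and 0 lower, with a median of 0.92, against 510 and 130 of all 18137 measured genes.

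**Figure D1:**
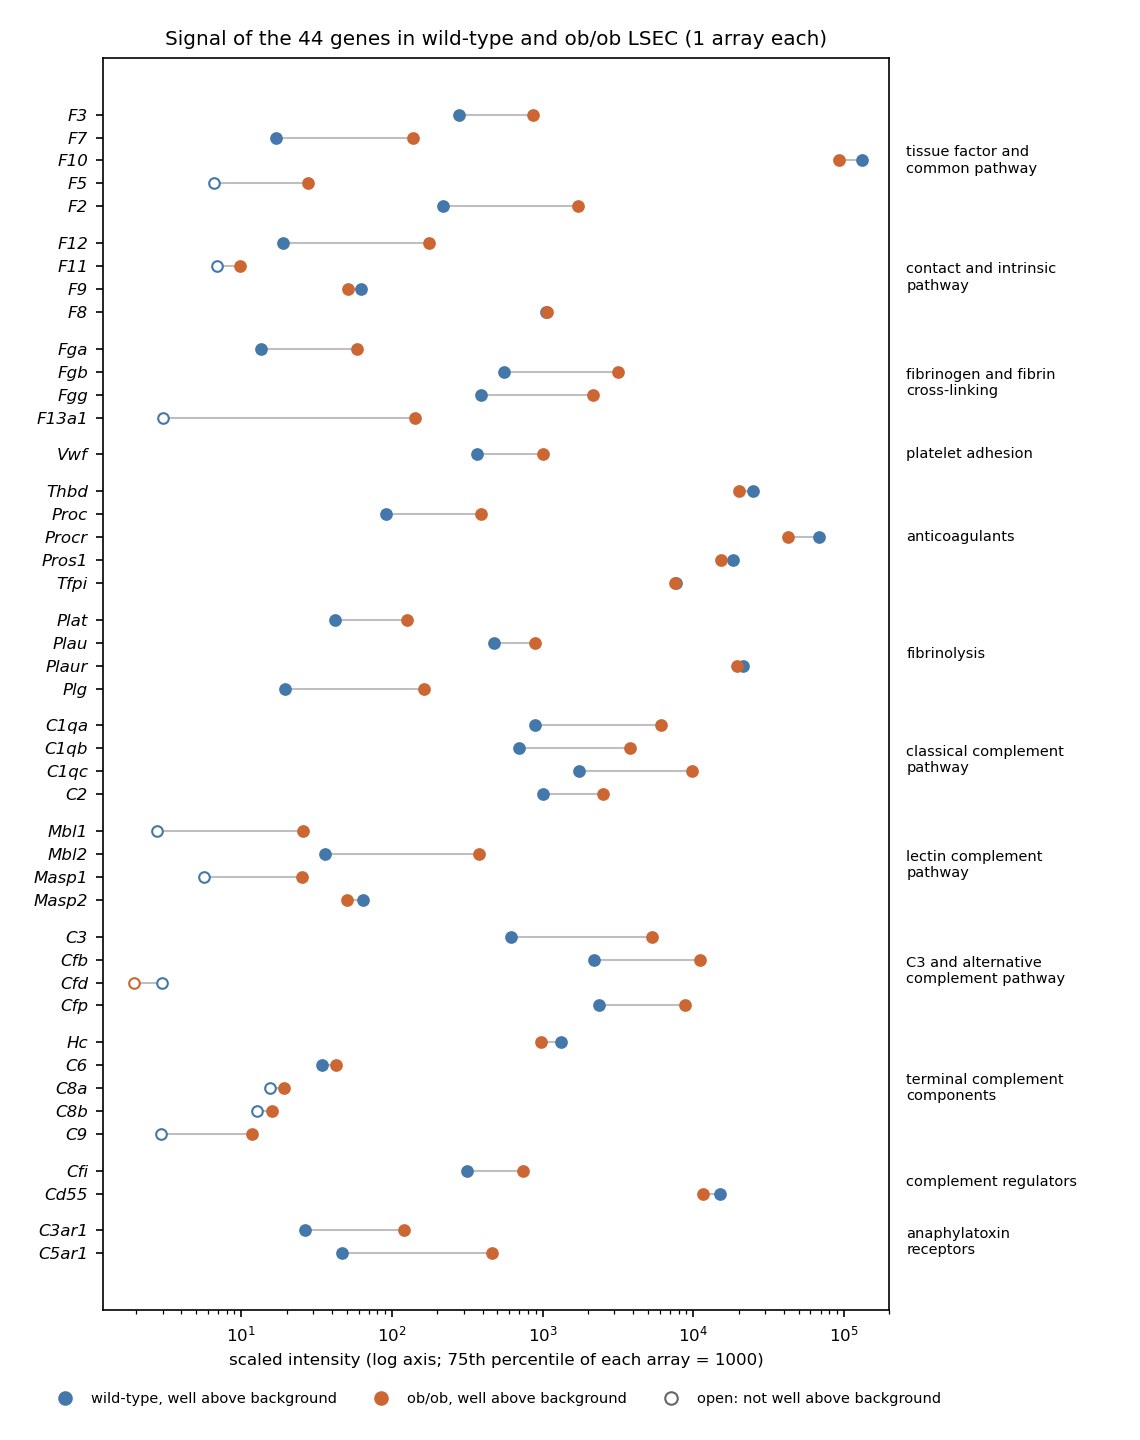
Scaled intensity of each of the 44 genes on the wild-type (blue) and ob/ob (orange) array, on a log axis and grouped by role, 1 array per genotype with no error bar. Filled points were well above background, and the 9 genes with an open wild-type point were not measured there. Thbd, Procr, Pros1, Tfpi, Plaur and Cd55 sit to the right with nearly overlapping points, while most other genes have their orange point to the right of the blue one.

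The protease arm that starts clotting was higher for most of its genes. Tissue factor (F3), the membrane receptor that sets off coagulation, had an intensity of 279 in wild-type cells and 867 in ob/ob cells and differed by 1.64 ± 0.20. Its dimmer probe, whose 60 bases lie across an intron, gave 1.23. Factor VII (F7), the protease that tissue factor activates, went from 17.0 to 137, a difference of 3.01 ± 0.34. Its other probe was measured in ob/ob cells only, at 109. Prothrombin (F2) was at 217 in wild-type cells and 1720.3 in ob/ob cells and differed by 2.99 ± 0.21. Factor V (F5), the cofactor of factor X, was at background in the wild-type sample (6.63) and reached 27.6 in ob/ob cells, at least 2.21-fold higher. For such genes the bound sets the ob/ob value against the dimmest measured wild-type probe, 12.5, or the gene's own wild-type signal where that was brighter. With normexp background correction the F7 difference was -0.17 with 75th percentile scaling and 0.92 with quantile normalization, so that the call for F7 was lost.

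Factor X (F10), the protease that converts prothrombin to thrombin, has 2 probes that disagree. The first, at chromosome 8, 13056119 to 13056178 (mm9), was among the brightest of the array, rank 76 of 39429 probes, with 132756 in wild-type cells and 93007 in ob/ob cells and a difference of -0.51. The second lies just upstream, at 13055774 to 13055833, and had 91.5 and 1230.8, a difference of 3.75. On the wild-type array the probes of this gene thus stood 1450-fold apart. The first stood for F10 by the rule, and with the second probe 23 members were at least 2-fold higher and the median difference was 1.90. Their sequences are shown because they separate these readings, bases 24 to 53 of the first and the whole of the second:
F10 first probe: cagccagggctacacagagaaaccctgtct
F10 second probe: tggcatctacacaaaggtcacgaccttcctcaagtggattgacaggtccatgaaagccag
The first is written as in the B1 family of short interspersed repeats of the mouse genome. It shared a run of at least 20 bases with 13 probes of other genes, 10 of them on the same strand, and those 10 had a median processed signal of 63873 in wild-type cells and 66050.0 in ob/ob cells, against 35.6 and 60.7 over all probes. No other member probe shared such a run with a probe of another gene, against 7.92% of all probes on the array. The part of the repeat in the signal of the first probe was not tested.

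The contact and intrinsic factors were split. Factor XII (F12), which starts the contact pathway, went from 19.0 to 177, a difference of 3.22 ± 0.30. Factor IX (F9), a vitamin K-dependent protease that hepatocytes secrete, was at 62.7 and 50.9, a difference of -0.30 ± 0.22. Factor VIII (F8), the cofactor of factor IX and a product of liver endothelium, was level at 1056 and 1063, a difference of 0.01 ± 0.20, and its second probe gave 0.05. Factor XI (F11) was measured in ob/ob cells only, at 9.86, below the dimmest measured wild-type signal, so no fold can be given. F12 was 0.20 under normexp at the 75th percentile.

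Of the 3 fibrinogen chains, which form 1 hexameric protein, Fgb and Fgg were higher under every alternative and Fga was not. Fgb was at 551 in wild-type cells and 3175 in ob/ob cells and differed by 2.53 ± 0.20, and Fgg at 388 and 2168, a difference of 2.48 ± 0.20. Fga was much closer to background, at 13.4 and 58.3, a difference of 2.12 ± 0.35. Its other probe was measured in ob/ob cells only, at 32.9, with 4.18 in wild-type cells. With normexp correction Fga was -0.80 (75th percentile) and 0.50 (quantile), so its direction is not settled, while Fgb and Fgg stayed at 2.03 or above in every alternative. The 3 genes lie side by side, with their probes within 27.6 kb of chromosome 3, from 82818825 to 82846393 (mm9). Factor XIII subunit A (F13a1), the transglutaminase that cross-links fibrin and a product of macrophages and megakaryocytes, was not measured in wild-type cells (3.04) and reached 142 in ob/ob cells, at least 11.4-fold higher. Its other probe, at chromosome 13, 37063829 to 37063888 (mm9), stayed at background on each array.

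The promoters of the fibrinogen genes and of F7 are shown because these genes lie side by side or serve the same cascade, and all 4 were at least 2-fold higher in the main processing, a call that F7 and Fga lost with normexp. They are the 250 bases before the start of the gene from RefSeq, build GRCm38.p6, with matches to 4 motifs in capitals on either strand. The motifs are CAAAGNNCA (HNF4A), TTGCNNAA (C/EBP), GTTAAT (HNF1) and CTGGGAA (IL-6 response element). HNF4A, HNF1 and C/EBP are transcription factors of hepatocytes, and the IL-6 element is known from acute-phase genes:
Fga (chr3:83025903-83026152, + strand): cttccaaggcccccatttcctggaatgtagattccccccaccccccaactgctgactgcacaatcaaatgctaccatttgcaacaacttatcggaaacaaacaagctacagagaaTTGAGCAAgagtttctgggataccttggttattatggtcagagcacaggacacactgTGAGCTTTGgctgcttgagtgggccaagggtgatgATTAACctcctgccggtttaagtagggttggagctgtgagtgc
Fgb (chr3:83049864-83050113, - strand): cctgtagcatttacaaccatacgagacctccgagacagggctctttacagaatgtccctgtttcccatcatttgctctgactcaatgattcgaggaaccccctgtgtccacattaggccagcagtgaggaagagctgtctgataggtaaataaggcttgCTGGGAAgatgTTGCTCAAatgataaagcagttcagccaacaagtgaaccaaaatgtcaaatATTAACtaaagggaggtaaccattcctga
Fgg (chr3:83007474-83007723, + strand): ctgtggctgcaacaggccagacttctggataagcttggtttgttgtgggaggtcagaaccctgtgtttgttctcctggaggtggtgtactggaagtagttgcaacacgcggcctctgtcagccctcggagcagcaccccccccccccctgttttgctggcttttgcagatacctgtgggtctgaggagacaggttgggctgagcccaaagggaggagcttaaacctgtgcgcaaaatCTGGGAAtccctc
F7 (chr8:13025784-13026033, + strand): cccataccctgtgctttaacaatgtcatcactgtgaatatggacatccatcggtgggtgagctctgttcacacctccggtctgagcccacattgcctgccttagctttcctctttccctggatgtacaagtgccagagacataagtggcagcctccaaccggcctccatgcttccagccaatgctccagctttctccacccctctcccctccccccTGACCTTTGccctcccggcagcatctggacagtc
Fga held the HNF4A letters from -78, C/EBP from -135 and HNF1 from -43 relative to the start. Fgb held the IL-6 element from -91, C/EBP from -80 and HNF1 from -29. Fgg held the IL-6 element alone, from -13, and F7 the HNF4A letters alone, from -34. No match overlapped another. Over 32851 promoters of the same length, 5.49% held the HNF4A letters, 9.56% C/EBP, 6.43% HNF1 and 9.10% the IL-6 element. Among the 33 members with a promoter available, 3, 8, 6 and 5 genes held them. A member gene was counted where any of its promoters held the letters, while the shares above are per promoter. A match is a description of the letters and not a binding site.

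Von Willebrand factor (Vwf), the multimeric protein that tethers platelets and carries factor VIII, was at 368 in wild-type cells and 1000 in ob/ob cells and differed by 1.44 ± 0.20. It stood apart from the other endothelial products of the list. Of the listed platelet markers, Clec1b was bright, at 14549 and 11678, a difference of -0.32, and which cells gave its signal was not tested. Pf4 differed by 2.95, and Ppbp, measured in ob/ob cells only, was at least 8.06-fold higher. Itga2b, the defining integrin of platelets, was at 21.4 and 27.8, a difference of 0.38. Gp9, Gp1ba, Gp6 and Tubb1 stayed at background on each array. Of 11 platelet and megakaryocyte markers 4 were measured on both arrays and 1, Pf4, was at least 2-fold higher. With locally bright spots dropped that count was 0, because Pf4 then had no value. The part of platelet RNA in the Vwf value was not tested.

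Of the 5 anticoagulants among the members, 4 were bright and within 2-fold. Thrombomodulin (Thbd), which turns thrombin from a clotting to an anticoagulant enzyme, had an intensity of 25122 in wild-type cells and 20209.8 in ob/ob cells and differed by -0.31 ± 0.20. The endothelial protein C receptor (Procr) was at 68070.5 and 42378, a difference of -0.68 ± 0.20, the most negative of the 35 members. Tissue factor pathway inhibitor (Tfpi) was at 7719 and 7552, a difference of -0.03 ± 0.20, and -0.08 with its second probe. Protein S (Pros1), the cofactor of activated protein C, was at 18449 and 15245, a difference of -0.28 ± 0.20. Protein C itself (Proc), a hepatocyte product, was the exception, at 91.6 and 392, a difference of 2.10 ± 0.21, and 0.76 under normexp at the 75th percentile. Among the members near 0, the sign changed with the processing for F8, F10, Tfpi, Pros1, Plaur and C6, so no direction is given for them.

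In fibrinolysis, plasminogen (Plg), the plasmin precursor from hepatocytes, went from 19.4 to 164, a difference of 3.08 ± 0.30. Tissue-type plasminogen activator (Plat), an endothelial and mesenchymal product, was at 42.0 and 127, a difference of 1.59 ± 0.23. The urokinase activator (Plau) was at 472 and 888, a difference of 0.91 ± 0.20, just inside 2-fold. The urokinase receptor (Plaur) was at 21310.1 and 19510.5, a difference of -0.13 ± 0.20. Under normexp at the 75th percentile Plg was 0.09 and Plat -0.38, so the direction of Plat is not settled.

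All 4 members of the classical complement pathway were higher, under every alternative processing. The C1q chains, which assemble into the molecule that recognises antibody and dying cells, were at 886 and 6098 for C1qa, 694 and 3790.2 for C1qb, and 1738 and 9743 for C1qc. Their differences were 2.78 ± 0.20, 2.45 ± 0.20 and 2.49 ± 0.20. They too lie side by side, within 15.9 kb of chromosome 4, from 136436578 to 136452468 (mm9). C1qc is spotted 10 times on each array. Its spots ranged from 1655 to 1820.1 (1738 ± 59.96, SD over 10 spots) in wild-type cells and from 9161 to 10279.7 (9748 ± 337) in ob/ob cells, and no spot of one array overlapped the other. C2, the protease of the classical C3 convertase, was at 1013 and 2531, a difference of 1.32 ± 0.20.

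The promoters available for the C1q genes, C1qb and C1qc, are shown for the same reason. They were searched for the 4 motifs above and for GAGGAAGT (PU.1, a transcription factor of macrophages), which 2.44% of all promoters and 1 of the 33 member genes held:
C1qb (chr4:136886201-136886450, - strand): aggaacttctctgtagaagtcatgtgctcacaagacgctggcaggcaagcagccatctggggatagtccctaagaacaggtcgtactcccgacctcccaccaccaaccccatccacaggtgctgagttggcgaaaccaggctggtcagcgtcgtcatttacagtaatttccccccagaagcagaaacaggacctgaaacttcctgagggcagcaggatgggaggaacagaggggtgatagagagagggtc
C1qc (chr4:136892915-136893164, - strand): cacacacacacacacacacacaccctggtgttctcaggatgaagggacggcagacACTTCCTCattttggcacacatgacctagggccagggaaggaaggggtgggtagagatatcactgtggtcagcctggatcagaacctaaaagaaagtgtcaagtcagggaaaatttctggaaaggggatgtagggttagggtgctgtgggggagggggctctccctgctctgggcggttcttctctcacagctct
C1qc held the PU.1 letters, in capitals, from -195. C1qb held none of the 5 motifs in this window.

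C3 and the alternative pathway were higher where they were measured. C3, the protein at which the complement pathways meet, was at 617 and 5350.2, a difference of 3.12 ± 0.20. Its probe was read on 9 kept spots, from 584 to 649 in wild-type cells and from 5139.9 to 5622 in ob/ob cells, and the spot-to-spot SD of the difference was 0.03. A second C3 probe gave 2.80. Factor B (Cfb), the protease of the alternative C3 convertase, was at 2183 and 11119, a difference of 2.35 ± 0.20, read by a probe that lies across an intron. C2 and Cfb are neighbours, with probes within 6.13 kb of chromosome 17. Properdin (Cfp), which stabilises that convertase and comes from macrophages and neutrophils, was at 2367 and 8811, a difference of 1.90 ± 0.20. Factor D (Cfd, adipsin), the protease that activates factor B and is known from adipocytes, stayed at background on each array (2.96 and 1.95). The local background at the Cfp spot on the wild-type array was 76.0, above the 99th percentile of that array, 69.0.

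**Figure D2:**
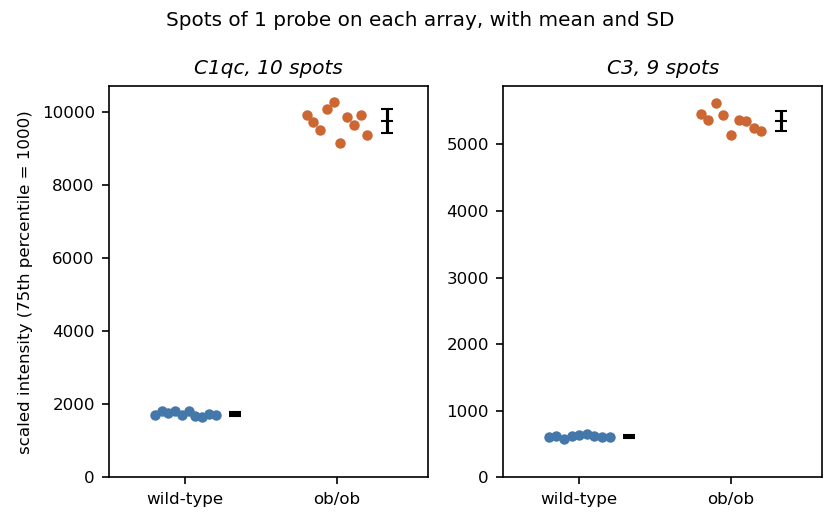
Scaled intensity of every kept spot of the C1qc probe (10 spots) and the C3 probe (9 spots) on the wild-type (blue) and ob/ob (orange) array, with the mean and SD over spots in black and axes from 0. The spots are technical repeats on 1 array per genotype. C1qc spots lie between 1655 and 1820.1 in wild-type cells and between 9161 and 10279.7 in ob/ob cells.

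The lectin pathway was dim and mixed. Mannose-binding lectin Mbl2, a hepatocyte protein that recognises microbial sugars, had the largest difference of the 35 members, from 36.1 to 381, 3.40 ± 0.24. Mbl1 and the protease Masp1 were measured in ob/ob cells only, at 25.8 and 25.3, at least 2.07-fold and 2.03-fold higher. The protease Masp2 was at 64.2 and 50, a difference of -0.36 ± 0.22. Another Masp2 probe was measured in ob/ob cells only, at 13.8, with 2.97 in wild-type cells.

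The terminal components, which build the membrane attack complex, showed no member at least 2-fold higher. C5 (Hc) was at 1333 and 972, a difference of -0.46 ± 0.20, and C6 at 34.2 and 42.4, a difference of 0.31 ± 0.25. C8a, C8b and C9 were measured in ob/ob cells alone, at 19.2, 16.01 and 11.7. The bounds were at least 1.23-fold for C8a and 1.26-fold for C8b, and no fold can be given for C9, whose signal was below the dimmest measured wild-type one.

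Of the regulators, factor I (Cfi), the protease that inactivates C3b, was at 315 and 741, a difference of 1.23 ± 0.20. It fell under 2-fold with array median scaling (0.95) and with both normexp settings (0.83 and 0.92). Decay-accelerating factor (Cd55), a membrane protein that dissociates the convertases, was bright and nearly level at 15125 and 11538, a difference of -0.39 ± 0.20. Of the anaphylatoxin receptors, which myeloid cells carry, C5ar1 was higher under every alternative and C3ar1 was not. C5ar1 was at 46.7 and 460.1, a difference of 3.30 ± 0.22, and C3ar1 at 26.7 and 120 (119.6), a difference of 2.17 ± 0.29. C3ar1 was -0.37 and 0.73 with the normexp settings, so its direction is not settled.

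Split by the known source of the protein, the genes named for endothelium had a lower median difference than those named for hepatocytes and macrophages. Of the hepatocyte products F2, F7, Proc, C8a and C9, the 3 measured on both arrays were all at least 2-fold higher, with a median of 2.99 and a range of 2.10 to 3.01. Their median was 0.76 under normexp at the 75th percentile and 1.19 under normexp with quantile normalization. In the first of these F7 (-0.17) and Proc (0.76) lay below the endothelial product Vwf (1.09). The 20 hepatocyte markers measured on both arrays, none of them a member, had a median of 2.86 and a range of 0.16 to 3.79. The 3 brightest on the ob/ob array were transferrin (Trf) at 2.64, albumin (Alb) at 3.15 and fetuin (Ahsg) at 1.93. Of the macrophage products, C1qa and Cfp were both higher, with a median of 2.34. The 16 macrophage markers had a median of 1.76 and a range of 0.38 to 4.63, and the 3 brightest, Marco, Cd5l and Mpeg1, differed by 1.29, 1.31 and 1.80. Of the endothelial products F8, Vwf, Thbd and Procr, 1 was higher (Vwf) and 3 were within 2-fold, with a median of -0.15 and a range of -0.68 to 1.44. The 18 endothelial markers had a range of -0.68 to 0.88, and the 3 brightest, Egfl7, Cdh5 and Fcgr2b, differed by -0.58, -0.44 and -0.22. With 1 array per genotype the difference between the sources was not tested, nor was the part of hepatocyte, macrophage and stellate cell RNA in the values of the members.

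**Figure D3:**
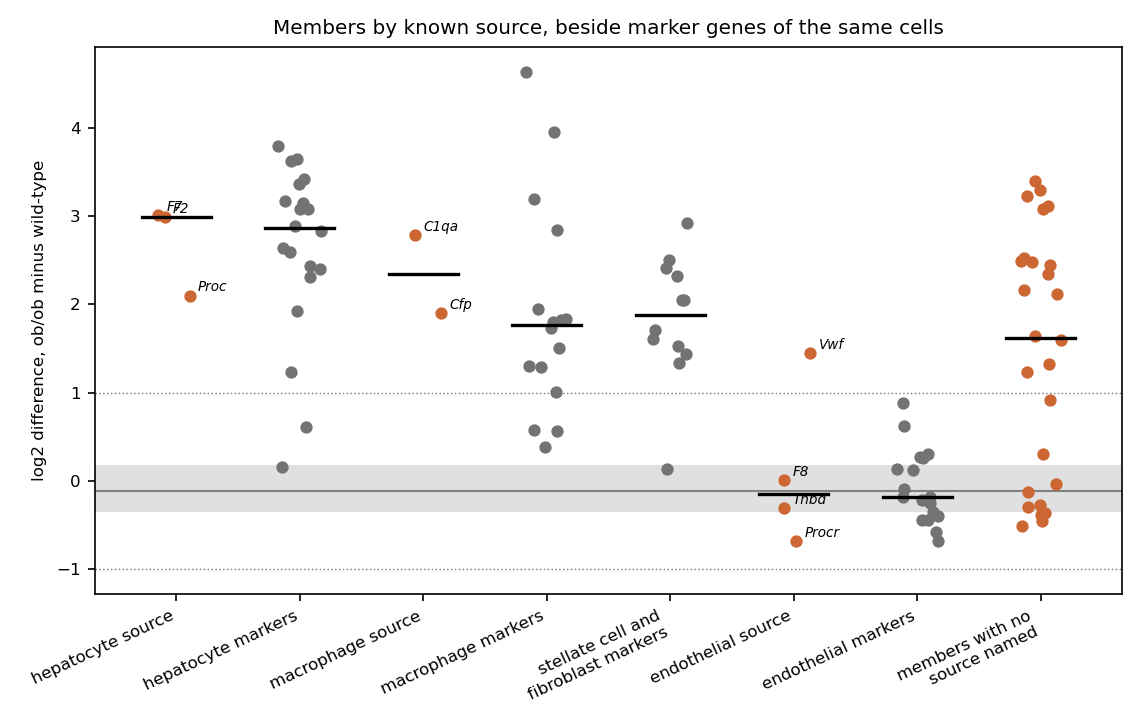
Log2 difference, ob/ob minus wild-type, of each gene measured on both arrays, for members by the source of the protein (orange) and for marker genes of the same cells (grey), with black bars at the median of each column. The grey line is the median of all genes, -0.12, the grey band the middle 50% of all genes, and dotted lines mark 2-fold. In this main processing the hepatocyte and macrophage products lie above the upper dotted line, and of the 4 endothelial products only Vwf does.

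Not every member that hepatocytes secrete was at least 2-fold higher. F9, which hepatocytes secrete, was lower by 0.30 on the log2 scale, and the liver products Masp2 and C6 differed by -0.36 and 0.31, with no intensity above 64.2. The sign of C6 changed with the processing, and the dimmer Masp2 probe had 2.97 and 13.8. Hc was brighter, at 1333 and 972, and differed by -0.46. F7, F12, Plg and Mbl2 had wild-type intensities of 17.0 to 36.1 and differences of 3.01 to 3.40. Under normexp at the 75th percentile their differences were -0.17, 0.20, 0.09 and 1.05. Of the 20 hepatocyte markers measured on both arrays 18 were at least 2-fold higher, while apolipoprotein Apoa1 and the enzyme Tat were within 2-fold, at 0.16 and 0.61. The part of hepatocyte RNA in these values was not tested.

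The brightest members differed little. All measured genes were split by mean intensity into 5 groups of equal size. Of the 7 members in the brightest group, with an intensity of 6286 or more, 0 were at least 2-fold higher, and their median was -0.31. All genes of that group had a median of -0.31, and 0.744% were at least 2-fold higher. Of the 28 members in the other 4 groups 22 were higher. In the next brightest group, from 1464 to 6286, 7 of 7 members were higher against 2.84% of all genes. In the group from 67.95 to 343, where the share over all genes was largest at 11.5%, 4 of 4 members were higher. In the middle group 6 of 9 members were higher against 5.87%, and in the dimmest 5 of 8 against 8.21%, so the share did not follow brightness among these 4 groups.

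**Figure D4:**
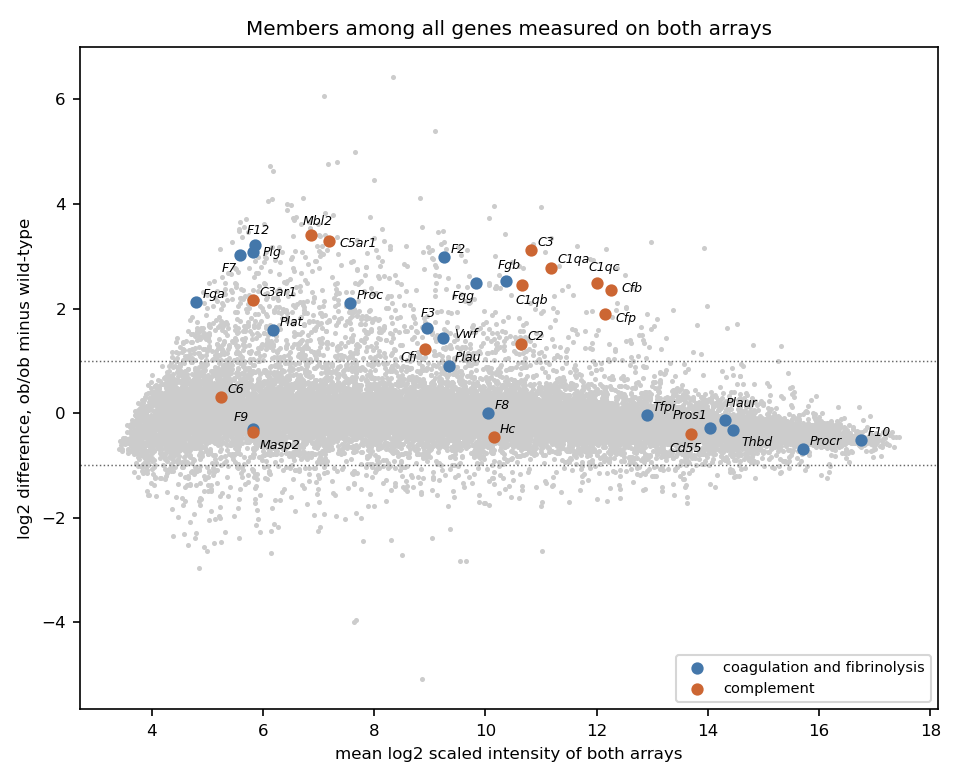
Log2 difference against the mean log2 scaled intensity of both arrays for all 18143 genes measured on both arrays (grey), with the coagulation and fibrinolysis genes in blue and the complement genes in orange, dotted lines at 2-fold. F10 is drawn at its brightest probe. The dimmer members reach 3.40, while Tfpi, Cd55, Pros1, Plaur, Thbd, Procr and F10 to the right lie between -0.68 and -0.03.

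Other genes of the same pathways gave a similar picture. Of 33 further coagulation and fibrinolysis genes, 27 were measured on both arrays, 16 were at least 2-fold higher, 1 was lower and 10 were within 2-fold (median 1.48). The kininogens Kng2 and Kng1, the cofactor of the contact pathway, differed by 2.98 and 2.57, antithrombin (Serpinc1), the main plasma inhibitor of thrombin, by 2.95 and the urokinase inhibitor Serpinb2 by 2.90. At the low end were Ggcx, the carboxylase that vitamin K-dependent factors need, at -1.997 (435 and 109; -0.99 with normexp and quantile normalization), Gas6 at -0.81, the fibrinolysis inhibitor Cpb2 at -0.65 and the thrombin receptor F2r at -0.47. Ggcx, the 1 lower gene, had no value in the authors' deposited table or with locally bright spots dropped. F13b, the carrier subunit of factor XIII, was measured in ob/ob cells only and was at least 2.30-fold higher. Kng1 and Kng2 are close copies, so their signals are uncertain, although no probe of either shared a run of 20 bases with a probe of another gene. Under normexp at the 75th percentile 6 of the 27 were higher, against 369 of all 18134 measured genes, and Kng2 was 0.27.

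Of 35 further complement genes 34 are on the array, and 26 were measured on both arrays. Of these 14 (53.8%) were at least 2-fold higher, 1 was lower and 11 were within 2-fold (median 1.17). The shares over all genes were again 5.83% higher and 2.29% lower. The classical pathway inhibitor C4bp differed by 4.005 (0.88 under normexp at the 75th percentile), the complement receptor subunit Itgax by 3.54, the macrophage complement receptor Vsig4 by 3.20 and clusterin (Clu), an inhibitor of the terminal complex, by 2.77. At the low end were C7 at -1.99, which joins C6 in the terminal complex and was dim (44.02 and 11.1; -0.51 with normexp and quantile normalization), the scavenger collectin Colec12 at -0.96, the terminal inhibitor Cd59a at -0.55 and Cr2 at -0.49. C1rb was measured in ob/ob cells only and was at least 2.66-fold higher. C1rb has a close copy, C1ra, which was 1.85 higher.

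**Figure D5:**
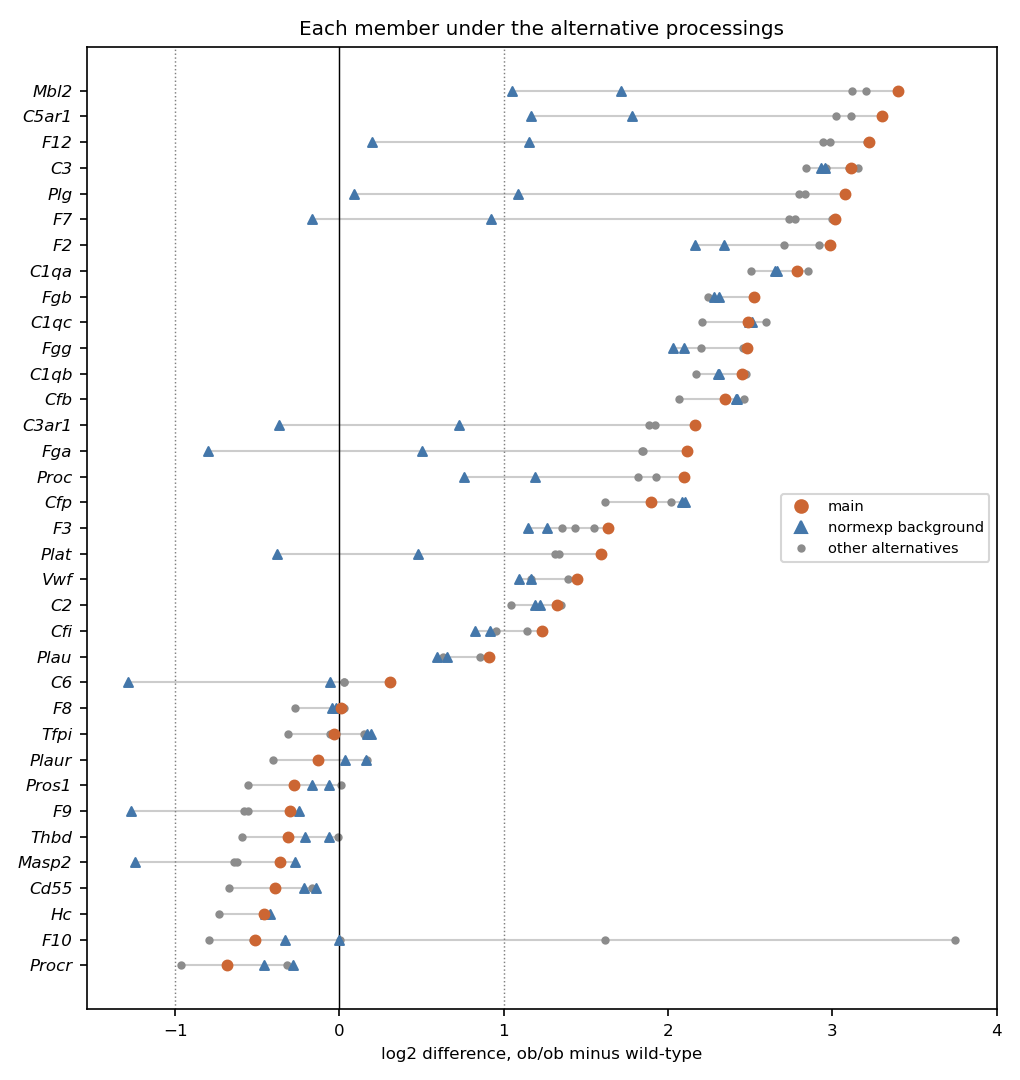
Log2 difference, ob/ob minus wild-type, of the 35 members measured on both arrays under the main processing (orange), with normexp background correction (blue triangles) and under the other alternatives (grey), dotted lines at 2-fold. 14 of the 22 higher members stay at 1 or above throughout, among them C1qa, C1qb, C1qc, C3, Cfb, F2, Fgb and Fgg, and the long lines to the left belong to dim genes such as F7, Fga, Plat and C3ar1.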

How the data were processed

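RNA of 1 wild-type and 1 ob/ob LSEC preparation was measured on 1-colour Agilent mouse arrays of design 026655, 1 slide. The deposited scanner files give a linear intensity for each spot. Scanning output came from Agilent Feature Extraction 11.0.1.1 (per the file headers), with spatial and multiplicative detrending switched on and no scaling between arrays recorded. Other columns of the deposited files hold flags of 0 or 1. The authors' deposited table holds 24868 features as the ratio of processed signal to the 75th percentile of the same array, which the scanner files bear out (range of the quotient 0.978% and 1.42% of its median), not centred, with column medians of 0.614 and 0.648.

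From the scanner files, flagged and control spots were dropped (no spot was saturated), signals were divided by the 75th percentile of the array (989 and 1430.0), log2 values were averaged over the spots of a probe, and the brightest probe stood for a gene. Well above background were 58.6% of wild-type and 64.8% of ob/ob spots. Gene names came from the wild-type file, and for other genes from RefSeq GRCm38.p6 through accessions (26055 of 39429 probes matched). Probe positions are mm9. Of 57 member probes 5 span more than 60 bases of the genome, so they lie across an intron. Normexp (offset 50) and quantile normalization used limma 3.58.1 in R 4.3.3, the rest Python 3.11.15. The code for probes and genes was tested on simulated data, and the code for bounds was not.

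The members and all lists were chosen with earlier results of these data known. All 44 members are named. Of each further pathway list the 4 highest, the 4 lowest and each bound of at least 2-fold are named, and of each marker list the 3 brightest on the ob/ob array. One result that this rule covers is not reported here. Any other gene was chosen after its values were seen. Of 10 neutrophil markers 4 were measured on both arrays, 0 higher and 2 lower (Elane -1.01; Mmp8 and S100a9 in ob/ob cells only, at least 9.30-fold and 5.77-fold higher). Of 11 cholangiocyte and mesothelial markers 3 were, all higher (Spp1 3.73, Krt8 2.90, Krt18 2.81). Among stellate markers the 3 brightest, Dcn, Rgs5 and Pdgfrb, differed by 2.05, 2.50 and 1.60. No test could be run on single arrays, whose number limits the precision.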

Additional observations from a re-analysis of the deposited data

How the results depend on the processing

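Of 22 members at least 2-fold higher, 14 stayed so in every alternative that gave them a value. The exceptions were F7, F12, Fga, Proc, Plg, Plat, Cfi and C3ar1. Normexp with the 75th percentile changed most: 14 members higher, 3 lower (C6, F9 and Masp2), a median of 0.20 over members and 0.76 over the hepatocyte products, and 369 genes higher and 3817 lower over the array (main 1057 and 415). It gave 2 higher stellate cell markers, against 11. Under it F7 was -0.17, Fga -0.80, Plat -0.38, C3ar1 -0.37, the lectin pathway median -0.10, Serpina10 -0.35, Klkb1 -0.90, Proz -0.33, Hrg -0.47, F2rl3 -0.90 and Adamts13 -0.31, each of them above 1 in the main processing. The cause was not tested. Normexp with quantile normalization gave 17 members higher, 510 genes higher and 130 lower, 8 of the further coagulation genes higher against 16, a median of 0.92 over members and 1.19 over the hepatocyte products. The macrophage median was 2.78 in the authors' deposited table and with locally bright spots dropped, which leave out Cfp. The hepatocyte median was 2.10 with genes measured on at least 1 array, where 27 members were higher. At 1.5-fold 23 members were higher and 1 lower, against 1781 and 1651 of all genes measured on both arrays. The dimmer F10 probe, chosen after seeing the data, gave 23. Scaling on the median, quantile normalization, the authors' table, the median over probes, locally bright spots dropped and flagged spots kept gave 21 to 23. No paired analysis was possible because each genotype has 1 array. Over 3688 genes with several probes, the SD between probes was 0.33, and the median SD of a difference between spots was 0.05. Neither holds the spread between mice. Signals near background, as for C8a, C8b, C9 and F11, allow no firm fold.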
